A study of Mus musculus with 8 samples.

Results

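Scid.adh.2c2 is a mouse pro-T cell line, and the cells described here are its mock control, Scid.adh.2c2 cells transduced with a retrovirus labelled Mock-GFP. They were chosen by label and make up 2 of the 8 libraries, mock replicate 1 and mock replicate 2. The other libraries come from the same line and the same protocol, 2 each with the labels Runx1 WT-GFP, Runx1 DN-GFP and Satb1-GFP. The labels do not spell out DN. In every group, the mock control included, infected cells were sorted after 2 days and RNA was taken from 300000 cells for single reads of 50 nt. All groups are thus a transduced, GFP-sorted, cultured cell line, with no uninfected cells among the libraries analysed here. The series concerns the transcription factor PU.1 in early T cells, and the mock libraries are the level from which each construct is read.

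Pro-T cells are thymocytes that have entered the T lineage but do not yet carry a finished T cell receptor. Notch signals and factors such as TCF-1, GATA3 and Bcl11b install the T program while PU.1 and other progenitor factors are shut off, and a pre-TCR then forms from a rearranged beta chain, the pre-T alpha chain and the CD3 chains. Scid.adh lines come from a thymic tumour of a scid mouse, whose lesion lies in Prkdc, so they are tumour cells with a defect in joining receptor gene segments.

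The mock libraries held 27077550 and 32950470 counts, within the 23624498 to 33093330 of all 8. Levels are given as RPKM, counts scaled to the library total and to transcript length in kb, and wherever a gene has a pair of values the first is mock replicate 1 and the second mock replicate 2. A gene is called expressed at 1 RPKM or more in both mock libraries, silent below 0.1 RPKM in both, and intermediate otherwise. A gene with 0 counts may still be present at up to 3 counts, which for Pax5 is 0.0926 and 0.0761 RPKM; such floors cover counting error only. The labels do not say whether the replicates of a group are separate cultures or infections, and the spread between them, and every p-value below, may be technical. The transduced genes followed the labels: Runx1 stood at 23.3 and 21.3 RPKM in mock, against 1382 and 1519 RPKM with Runx1 WT, 3737 and 4296 RPKM with Runx1 DN and 30.8 and 30.3 RPKM with Satb1. Satb1 stood at 60.8 and 58.01 RPKM in mock, against 571 and 613 RPKM in the Satb1 group.

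The 2 mock libraries ranked genes alike, with a Spearman rho of 0.994 across the 9998 expressed genes, which are not independent replicates, and 98.0% of these genes lay within 1.5-fold of each other. The exceptions had a direction. Of 36 expressed genes more than 2-fold apart, 29 were higher in mock replicate 2 and 7 in mock replicate 1. Of the listed genes the furthest apart was Ndrg1, a hypoxia-inducible gene, at 56.3 and 455 RPKM. Values of glycolytic and hypoxia-inducible genes are therefore given for each library below and never as a mean alone.

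**Figure D1:**
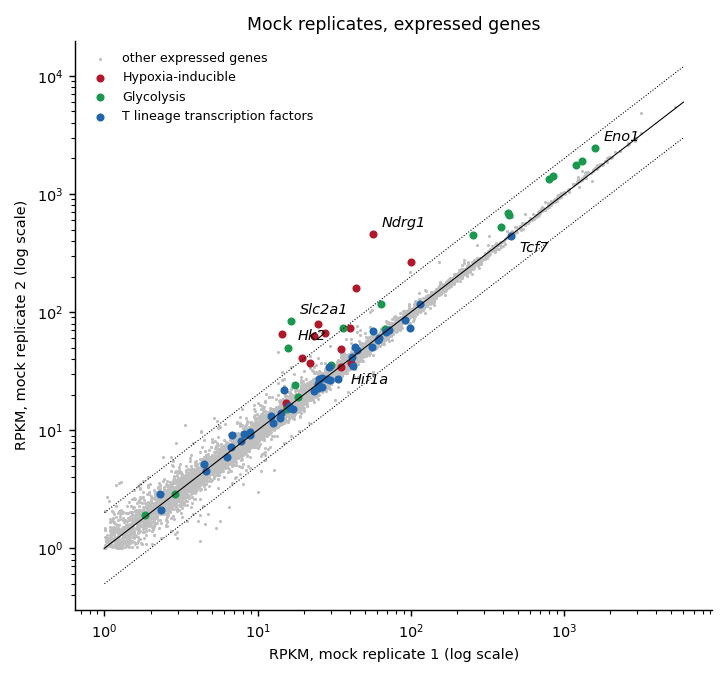
RPKM of the 9998 expressed genes in mock replicate 2 (vertical, log scale) against mock replicate 1 (horizontal, log scale), with the solid line at equality and dotted lines at 2-fold. T lineage factors lie along the solid line, while most glycolytic and hypoxia-inducible genes lie above it, with Ndrg1 at 56.3 and 455 RPKM.

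Of the 24505 genes in the table, 9998 (40.8%) were expressed in mock cells, 2470 (10.1%) were intermediate and 12037 (49.1%) were silent, among them 8820 without a read in either library. The median expressed gene stood at 15.8 RPKM, 817 genes averaged at least 100 RPKM and 79 at least 1000 RPKM. Counts were spread over many genes: the top 10 held 4.58% and 5.25% of the counts, the top 1000 held 51.1% and 52.0%. Coding genes were expressed in 9452 of 20701 cases and noncoding RNAs in 383 of 3339. All 62 rows on random or unplaced scaffolds had 0 counts in all 8 libraries, so a 0 there, as for the sterol synthesis gene Hmgcs1, says nothing of the cells.

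The most abundant messages per kb belonged to translation, ubiquitin and protein folding. Eef1a1, which brings aminoacyl tRNAs to the ribosome, ranked first at 5306 and 5444 RPKM. Rpl41, a ribosomal protein, had 3190.2 and 3283 RPKM, the polyubiquitin gene Ubb stood at 2301 and 2303 RPKM, and the prolyl isomerase Ppia at 2897 and 2809.7 RPKM. Ptma, a nuclear acidic protein, had 2602 and 2694 RPKM. Also among the first 15 were the ribosomal proteins Rplp1, Rpl8, Rpl28, Rpl32 and Rpl23a, of which Rplp1 had 2629 RPKM in mock replicate 1. The glycolytic enzyme Eno1 was also among them at 1579 and 2443 RPKM, as were Eno1b, an intronless copy listed at 3149 and 4875 RPKM whose reads cannot be told from those of Eno1, and Gm1821, a row annotated as a pseudogene, at 2012 and 2021 RPKM. All 77 ribosomal protein rows were expressed, and together they took 7.28% of the counts of mock replicate 1 and 7.49% of mock replicate 2.

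Ranking by CPM, counts scaled to the library total only, which favours long transcripts, brought in further genes. Eef2, the factor that moves the ribosome along the message, had 4194 and 4648 CPM, the chaperones Hsp90ab1 and Hspa8 had 4068 and 4386 and 3186 and 2713 CPM, and nucleolin, Ncl, had 2784 and 2698 CPM. Pabpc1, which binds poly(A) tails, had 2581 and 2725 CPM. Pkm and Ldha, which make pyruvate and lactate, had 3183 and 4599 and 1939 and 2816 CPM, higher in mock replicate 2. Rplp0 and Rpl4 completed the 15 together with genes already named.

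**Figure D2:**
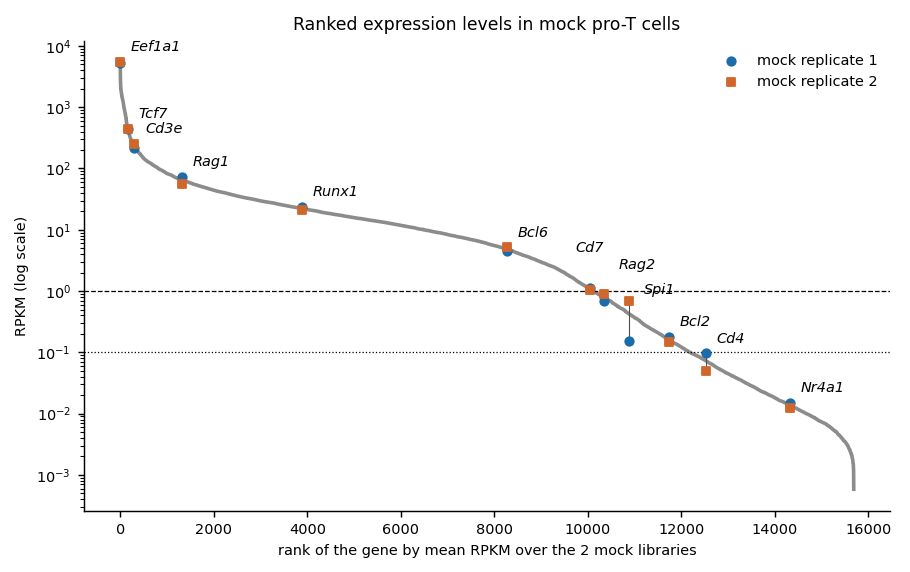
RPKM (log scale) of every gene with a read in mock, ordered by mean RPKM, as a grey line, with 12 named genes shown in both mock libraries and the thresholds of 1 (dashed) and 0.1 RPKM (dotted). Tcf7 and Cd3e lie at ranks 167 and 297, Runx1 and Bcl6 in the middle of the expressed range, and Spi1, Bcl2, Cd4 and Nr4a1 below 1 RPKM.

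The transcription factors matched the T lineage label. Of 57 listed factors, 43 were expressed, 7 intermediate and 7 silent, with a median of 14.1 RPKM against 0.0939 RPKM over all rows. Tcf7, which encodes TCF-1 downstream of Notch, was the most abundant at 446 and 439.5 RPKM, rank 167 of all genes, and its relative Lef1 stood at 26.3 and 23.2 RPKM. Gata3, needed for T lineage entry, had 56.7 and 68.8 RPKM, and Bcl11b, the factor that marks commitment, had 62.1 and 60.02 RPKM. Tcf7 lies on chromosome 11, 52065785 to 52096516, Gata3 on chromosome 2, 9778705 to 9800227, and Bcl11b on chromosome 12, 109148613 to 109241624, all on the minus strand in mm9.

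Other regulators of thymocytes were abundant too. Sox4 had 115 and 117 RPKM and Myb 98.2 and 73.6 RPKM. The E proteins Tcf3 and Tcf12, which drive receptor rearrangement, stood at 92.1 and 86.5 RPKM and at 68.4 and 67.5 RPKM, while the third E protein, Tcf4, was silent at 0 and 0.00427 RPKM. Among their Id inhibitors, Id2 held 93.1% of the summed RPKM of the 3 in both libraries, at 43.02 and 50.4 RPKM, with Id3 at 2.298 and 2.88 RPKM and Id1 at 0.874 and 0.881 RPKM. Ikzf1 led the Ikaros family at 72.002 and 70.8 RPKM, ahead of Ikzf3 at 41.9 and 35.2 RPKM. Runx1 was the main Runx factor at 23.3 and 21.3 RPKM, with Runx3 at 6.75 and 9.05 RPKM and Runx2 silent at 0.0125 and 0.00515 RPKM; their shared partner Cbfb had 55.7 and 50.9 RPKM.

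Factors of later or activated T cells were mixed. The silent members of the whole list of T lineage factors, early and late, were Sox13, Nr4a1, Egr2, Egr3, Runx2, Tcf4 and Bach2. No read of Bach2 or Egr3 was seen in mock. Egr2, Egr3 and Nr4a1 are induced by receptor signals, and Nr4a1 stood at 0.01497 and 0.0123 RPKM. Zbtb16, the factor of innate-like T cells, was at 0.188 and 0.226 RPKM. Zbtb7b, known for directing CD4 cells, was expressed at 24.8 and 22.8 RPKM, although it has a noncoding neighbour, Gm15417, on the same span. Foxp3, the regulatory T cell factor, was listed at 2.32 and 2.11 RPKM, but its row overlaps Ccdc22, and unstranded reads of the pair cannot be separated. Klf2, which promotes exit from the thymus, differed between the libraries at 0.734 and 2.16 RPKM.

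Genes of the progenitor state were nearly all off. Of 21 stem and progenitor regulators only the cytokine receptor Flt3 was expressed, at 3.21 and 3.52 RPKM, while 5 were intermediate and 15 silent, 8 of them without a read in mock. Spi1, which encodes PU.1, had 6 and 33 counts, or 0.153 and 0.692 RPKM, and its relative Spib 0.359 and 0.339 RPKM. Kit, the stem cell factor receptor, was at 0.0573 and 0.0765 RPKM. Lmo1, Lmo2, Gata2, Hhex, Meis1, Hoxa9 and Mycn were among the regulators without a read. Lyl1, at 0.0823 and 0.203 RPKM, Erg, at 0.148 and 0.225 RPKM, and Nfe2, at 0.157 and 0.0807 RPKM, were intermediate, and Tal1, Bcl11a, Mef2c, Gfi1b, Hoxa10 and Cd34 silent.

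Defining markers of other blood lineages were mostly below the threshold, with 1 to 5 expressed genes in each list. Of all rows 40.8% were expressed and 49.1% silent. The B lineage, myeloid and dendritic lists had 14.3%, 22.2% and 14.3% expressed and 71.4%, 72.2% and 71.4% silent. The NK and erythroid lists lay nearer to all rows, with 31.25% and 27.3% expressed and 43.75% and 36.4% silent. Among 14 B lineage genes, Pax5, Ebf1, Blnk and Ms4a1 had no read, and Cd79a stood at 0.252 and 0.138 RPKM. The exceptions were Pou2af1, a coactivator of octamer-binding factors, at 22.6 and 26.3 RPKM, and Cd22, a lectin of B cells, at 1.39 and 2.001 RPKM. Of 18 myeloid genes, 9 had no read, among them Cebpa, Csf1r, Mpo, Irf8 and S100a8, and Lyz2 stood at 0 and 0.0289 RPKM. Cebpb, a stress-responsive relative of Cebpa, was expressed at 28.2 and 24.98 RPKM, as were Fcer1g, a signalling adaptor, at 3.12 and 4.34 RPKM, the integrin chain Itgam at 1.51 and 1.94 RPKM and Cd68 at 1.82 and 1.37 RPKM. Of 7 dendritic genes, Flt3 alone was expressed, and Siglech, Clec9a and Zbtb46 had no read.

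Cytotoxic and NK genes were split. Gzma, a granule protease, was abundant at 119 and 130.4 RPKM, rank 624, but perforin, Prf1, was silent at 0.03605 and 0.0741 RPKM and Gzmb was at 0 and 0.101 RPKM. Tbx21, the factor T-bet, had 6.01 and 7.396 RPKM, and Nfil3, needed for NK cells, had 3.81 and 7.79 RPKM, while Eomes, Klrd1, Il18r1 and Il1rl1 had no read and Ncr1 stood at 0.102 and 0.0417 RPKM. Il2rb, a signalling partner of Il2rg, had 2.46 and 3.86 RPKM, and Cd160 had 2.21 and 2.24 RPKM. In all, 5 of 16 were expressed, 4 intermediate and 7 silent.

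Among 11 erythroid, mast and megakaryocyte genes, Cpa3, a mast cell protease also known from early progenitors, stood out at 27.6 and 32.3 RPKM. Gata1 was just over the threshold at 1.21 and 1.01 RPKM, and Epor was at 1.12 and 2.05 RPKM. Hbb-b1, Pf4 and Fcer1a had no read in any of the 8 libraries. Of 13 markers of thymic stroma and endothelium only Pecam1, an adhesion molecule also found on leukocytes, was expressed, at 12.8 and 12.5 RPKM; 12 were silent, and Foxn1, Epcam and Cdh5 had no read. The summed level was 4.24 and 5.25 RPKM over 21 stem and progenitor genes, 25.1 and 29.6 over 14 B lineage genes, 35.0 and 33.4 over 18 myeloid genes, 3.43 and 3.905 over 7 dendritic genes, 135.01 and 153 over 16 NK and cytotoxic genes, mostly Gzma, 31.9 and 37.4 over 11 erythroid, mast and megakaryocyte genes, mostly Cpa3, and 12.9 and 12.7 over 13 stroma genes, against 1757 and 1727 RPKM over the longer list of 57 T lineage factors.

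**Figure D3:**
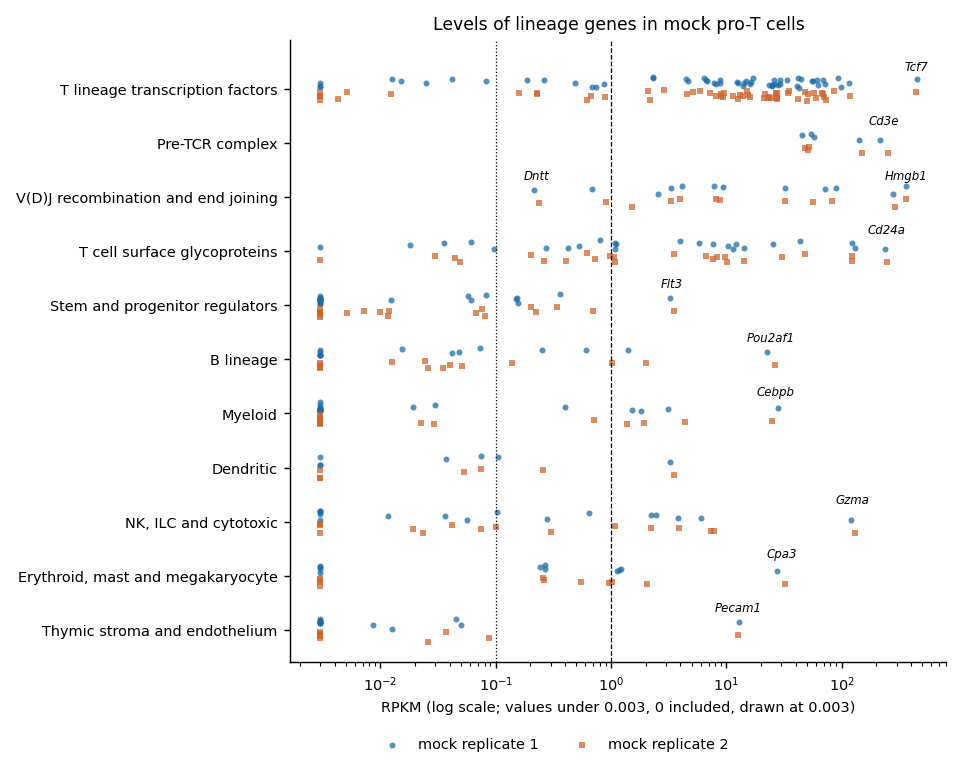
RPKM (log scale) of each gene of 11 lists in mock replicate 1 (circles) and mock replicate 2 (squares), 1 row per list, with values under 0.003 drawn at 0.003 and lines at 0.1 and 1 RPKM. T lineage, pre-TCR and recombination genes sit mostly right of 1 RPKM, while stem and progenitor, B lineage, myeloid, dendritic and stroma genes sit mostly left of 0.1 RPKM and NK and erythroid genes are more spread; members far to the right are Gzma, Cpa3, Pou2af1 and Cebpb.

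All 5 listed pre-TCR genes, the pre-T alpha chain and the CD3 chains, were expressed; the list holds no beta chain gene. Cd3e, on chromosome 9 from 44806826 to 44817673 in mm9, led at 215 and 250.1 RPKM, followed by Cd3g at 143 and 150.1 RPKM, the zeta chain Cd247 at 57.2 and 50.9 RPKM, Ptcra, the pre-T alpha chain, at 54.1 and 51.8 RPKM, and Cd3d at 45.2 and 48.4 RPKM. These 5 genes took 0.0675% and 0.0724% of the counts. To show what DNA lies before such genes and before lineage regulators that had no read, the 250 bases upstream of the start of 4 genes are given in the direction of transcription from RefSeq on GRCm38.p6, with each CpG in capitals. Ptcra (chr17:46763713-46763962, minus strand) and Cd3d (chr9:44981536-44981785, plus strand) were expressed; Pax5 (chr4:44710695-44710944, minus strand), the B cell commitment factor, and Cebpa (chr7:35119043-35119292, plus strand), a myeloid factor, had no read.
Ptcra: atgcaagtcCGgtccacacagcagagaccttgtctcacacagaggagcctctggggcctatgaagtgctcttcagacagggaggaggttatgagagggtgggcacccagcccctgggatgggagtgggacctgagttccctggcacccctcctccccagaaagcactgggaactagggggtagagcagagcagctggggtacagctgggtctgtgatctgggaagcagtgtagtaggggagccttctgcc
Cd3d: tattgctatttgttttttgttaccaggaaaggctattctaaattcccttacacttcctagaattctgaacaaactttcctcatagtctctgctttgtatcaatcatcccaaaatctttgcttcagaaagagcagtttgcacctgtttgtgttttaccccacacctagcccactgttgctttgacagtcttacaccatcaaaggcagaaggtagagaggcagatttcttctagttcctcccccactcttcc
Pax5: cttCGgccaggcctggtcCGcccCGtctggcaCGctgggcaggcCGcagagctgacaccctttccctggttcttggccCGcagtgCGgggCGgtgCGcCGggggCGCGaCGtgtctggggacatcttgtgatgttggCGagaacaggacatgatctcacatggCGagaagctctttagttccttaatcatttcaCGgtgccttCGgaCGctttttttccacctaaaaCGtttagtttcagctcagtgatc
Cebpa: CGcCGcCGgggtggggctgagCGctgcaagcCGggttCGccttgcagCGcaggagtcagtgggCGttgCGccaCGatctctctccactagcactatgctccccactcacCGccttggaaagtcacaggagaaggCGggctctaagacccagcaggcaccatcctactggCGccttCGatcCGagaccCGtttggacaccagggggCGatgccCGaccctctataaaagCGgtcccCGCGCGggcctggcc
The expressed Ptcra and Cd3d had 1 and 0 CpG in this window, and the unread Pax5 and Cebpa had 19 and 22, but other genes ran the other way: the expressed Gata3 and Eef1a1 had 19 and 18, and the silent Mpo had 2. CG reads the same on both strands, so each was counted once. Observed over expected CpG was below 0.6 for all 5 pre-TCR genes, with 7 CpG before Cd3e and 4 before Cd3g, while 46.5% of the 13300 protein-coding genes with exactly 1 promoter entry reached 0.6. That background covers 64.2% of protein-coding rows, and with so many rows lacking a value the check of CpG content over all expressed and silent genes is void. These examples say nothing of expressed or silent genes as a class. A count of letters is a description and says nothing of methylation or of binding.

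Recombination genes were unevenly expressed. Rag1, which cuts receptor segments, was high at 71.8 and 56.5 RPKM, whereas its partner Rag2, the adjacent gene on chromosome 2, was intermediate at 0.687 and 0.896 RPKM, and part of that may belong to the overlapping B230118H07Rik. Dntt, the enzyme that adds bases at junctions, had only 12 and 16 counts, or 0.215 and 0.236 RPKM. All listed end-joining genes were expressed. Xrcc6 and Xrcc5, the Ku subunits, had 88.6 and 82.6 RPKM and 31.99 and 32.01 RPKM, Lig4 9.38 and 8.76 RPKM, Xrcc4 7.83 and 8.06 RPKM, Dclre1c, or Artemis, 3.29 and 3.33 RPKM, and Nhej1 2.54 and 1.53 RPKM. Prkdc, the gene hit in scid mice, was expressed at 4.099 and 3.96 RPKM, which says nothing of the protein. The DNA-bending proteins Hmgb1 and Hmgb2 were the highest of the 12, at 363 and 361 RPKM and at 281 and 288 RPKM.

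Surface glycoproteins were those of an immature thymocyte. Cd24a, an antigen of immature thymocytes, had 238 and 249 RPKM, Thy1 130.2 and 122 RPKM, and Ptprc, or CD45, 124 and 124 RPKM. Of the coreceptor genes Cd4 and Cd8a were silent. Cd4 had 8 and 5 counts and Cd8a 3 and 3, or 0.0958 and 0.0492 RPKM and 0.0358 and 0.0294 RPKM. Cd8b1 was expressed, just over the threshold, at 1.08 and 1.08 RPKM. Cd44, which falls before the beta chain is rearranged, had no read in mock, below a floor of 0.022 and 0.0181 RPKM. Cd5, a marker that follows receptor signals, was silent at 0.01796 and 0.0443 RPKM, and Cd69 stood at 0.275 and 0.263 RPKM. Cd28 at 14.1 and 14.3 RPKM and Cd2 at 10.3 and 7.63 RPKM were expressed, Cd27 was intermediate at 0.424 and 0.406 RPKM, and Cd7 lay at 1.11 and 1.06 RPKM. In all, 14 of 24 were expressed, 6 intermediate and 4 silent.

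The proximal kinases and adaptors of the antigen receptor were largely in place, with 22 of 27 expressed. Lck, the first kinase, had 133 and 129 RPKM, ahead of its relative Fyn at 8.02 and 8.09 RPKM, and its inhibitor Csk had 108 and 109 RPKM. Zap70, which binds phosphorylated CD3 chains, had 38.2 and 36.3 RPKM, while Syk, its relative, was silent at 0.00726 and 0.0179 RPKM. The adaptors Lat and Lcp2 stood at 51.95 and 49.4 RPKM and at 10.3 and 9.99 RPKM. Plcg1 had 21.1 and 23.4 RPKM and Plcg2, the form used by B cells, 0.0604 and 0.0355 RPKM. Of the link to NF-kB, Prkcq was silent at 0.0224 and 0 RPKM, although Bcl10 and Malt1 were expressed at 10.2 and 11.8 RPKM and at 5.299 and 5.498 RPKM. Txk was intermediate at 0.343 and 0.282 RPKM, below its relative Tec at 2.28 and 3.598 RPKM.

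Downstream, 32 of 36 genes of the MAPK, PI3K and NF-kB branches were expressed, with a median of 15.9 RPKM. Akt1 led at 119 and 111 RPKM, with Akt2 at 35.7 and 34.8 RPKM. Of the Ras genes, Hras was expressed at 39.2 and 42.02 RPKM and Nras at 26.2 and 26.4 RPKM. Of the catalytic PI3K subunits, the ubiquitous Pik3ca was highest at 8.03 and 8.06 RPKM, while the leukocyte forms Pik3cd and Pik3cg were intermediate at 0.958 and 1.02 RPKM and 0.173 and 0.174 RPKM. Spry1, a feedback inhibitor, had no read, and Dusp6, an ERK phosphatase, stood at 1.24 and 1.58 RPKM. Of the NF-kB subunits, Rela and Nfkb1 stood at 31.4 and 27.9 RPKM and 28.2 and 27.2 RPKM, with Rel at 2.67 and 2.04 RPKM.

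The Notch pathway was expressed from receptor to target. Notch1 had 84.1 and 73.6 RPKM, Notch3 17.2 and 19.02 RPKM and Notch2 10.7 and 11.04 RPKM, and Notch4 was intermediate at 0.0899 and 0.175 RPKM. The targets Nrarp and Dtx1 were the 2 highest of the 30 pathway genes, at 178 and 194 RPKM and at 127 and 133 RPKM, and Hes1 and Hes5 stood at 41.5 and 49.02 RPKM and at 17.9 and 15.7 RPKM. Hey1, at 0.0504 and 0.138 RPKM, and Heyl, at 0.00816 and 0.0134 RPKM, were not expressed. No ligand was expressed in both libraries: Dll1 and Jag1 were silent, Dll3 and Dll4 intermediate, and Jag2 lay at the threshold at 1.02 and 0.897 RPKM. Of the Fringe enzymes, which tune Notch for its ligands, Mfng had 59.9 and 53.9 RPKM and Rfng 24.6 and 22.1 RPKM, while Lfng, the form studied most in thymocytes, was silent at 0.0325 and 0.0534 RPKM. The DNA-binding partner Rbpj had 21.9 and 22.6 RPKM. In all, 21 of 30 were expressed, 5 intermediate and 4 silent.

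Cytokine receptors covered 21 expressed, 2 intermediate and 15 silent genes of 38. Il2ra, or CD25, the surface marker of this stage, was the highest at 122 and 118 RPKM, followed by the common gamma chain Il2rg at 53.3 and 51.6 RPKM and Il7r at 34.6 and 29.7 RPKM. Il17rb and Il9r, receptor chains known from allergic-type immunity, had 25.9 and 24.5 RPKM and 14.8 and 13.8 RPKM, Il15ra had 22.7 and 21.1 RPKM and Crlf2, part of the TSLP receptor, 11.5 and 11.2 RPKM. The interferon receptor chains were present, with Ifnar2 at 14.9 and 16.2 RPKM and Ifngr1 at 12.1 and 12.1 RPKM. Tgfbr1 was expressed at 22.4 and 18.8 RPKM, but Tgfbr2, the chain that binds the ligand, had 0 counts in all 8 libraries, below a floor of 0.0232 and 0.0191 RPKM in mock. Il4ra and Tnfrsf1a, both common on T cells, also had no read in mock.

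Of 15 JAK, STAT and SOCS genes, 11 were expressed. Stat3 stood at 34.1 and 36.5 RPKM and Stat6 at 30.7 and 31.3 RPKM, and Stat5b and Stat5a, which act after Il7r, stood at 20.5 and 23.03 RPKM and at 14.6 and 18.2 RPKM. Stat4 was silent at 0.0125 and 0.0922 RPKM. Jak1 had 22.9 and 25.9 RPKM and Jak3, the partner of the common gamma chain, 16.8 and 23.2 RPKM. Among the feedback inhibitors Socs3 was expressed at 12.7 and 9.004 RPKM and Socs2 intermediate at 0.8496 and 0.794 RPKM, whereas Socs1 and Cish had 0 counts in all 8 libraries.

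Migration receptors were few, 5 of 23. Cxcr4, the receptor for Cxcl12 in the thymic cortex, stood alone at 130.01 and 129.9 RPKM. S1pr2 had 12.5 and 10.2 RPKM, Ccr4 3.901 and 4.198 RPKM, Ccr9, a thymus homing receptor, 3.37 and 3.78 RPKM and Cxcr3 2.97 and 2.08 RPKM. S1pr1 and Ccr7, used by mature thymocytes, stood at 0.0122 and 0.1003 RPKM and 0 and 0.108 RPKM. Of 26 integrin chains 10 were expressed, led by the beta chains Itgb1 at 60.01 and 65.1 RPKM, Itgb7 at 19.6 and 25.9 RPKM and Itgb2 at 20.97 and 22.8 RPKM, with the alpha partners Itgal at 10.1 and 10.7 RPKM, Itga4 at 9.698 and 9.87 RPKM and Itga6 at 7.76 and 8.53 RPKM. Itga5 and Itga1 had no read in mock. Only 2 of 12 Toll-like receptors were expressed, Tlr6 at 6.25 and 6.4999 RPKM and Tlr1 at 6.05 and 6.25 RPKM; Tlr4, Tlr5, Tlr8, Tlr11 and Tlr13 had no read, and Tlr2, their usual partner, stood at 0 and 0.0106 RPKM.

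Glycolysis was among the most abundant pathways and differed between the libraries. Its 30 listed genes took 1.45% of the counts of mock replicate 1 and 2.25% of mock replicate 2. Of the 20 expressed members 18 were higher in mock replicate 2. The list holds Eno1 but not Eno1b, at 5343 and 8270 CPM, whose reads cannot be told from those of Eno1. Pkm stood at 1316 and 1901 RPKM, Ldha at 1202 and 1746 RPKM, Aldoa at 843 and 1415 RPKM, Pgk1 at 802 and 1333 RPKM, Tpi1 at 429 and 687 RPKM and Gapdh at 388 and 527 RPKM. Of forms best known from liver and muscle, the pyruvate kinase Pklr had no read in mock, while the phosphofructokinases Pfkl and Pfkm stood at 63.5 and 117 RPKM and at 30.2 and 35.4 RPKM. Among transcripts for glucose entry, the leading transporter and hexokinase depended on the library, and uptake itself was not measured. Slc2a1, the transporter GLUT1, had 16.4 and 84.2 RPKM, against a steadier Slc2a3 at 18.5 and 19.01 RPKM, and Hk2 had 15.8 and 50.1 RPKM, against Hk1 at 17.6 and 24.1 RPKM. These were the only 2 of 40 paralog families in which the leading member differed between the mock libraries.

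The hypoxia-inducible list moved with it. Of 15 expressed members 13 were higher in mock replicate 2, with a median log2 ratio of 1.06 between the libraries against -0.04 over all expressed genes. Egln3, an oxygen sensor, had 43.9 and 160.4 RPKM, Bnip3, a mitophagy receptor, 24.8 and 79.4 RPKM, Ankrd37 14.4 and 65.2 RPKM and Vegfa 19.4 and 40.4 RPKM. Hif1a itself stood at 35.1 and 34.001 RPKM and its relative Epas1 was silent. The labels give no difference in handling between the 2 libraries. The list of 28 pyruvate and TCA cycle genes took 0.514% and 0.517% of the counts, with 25 expressed. Mdh2 led that list at 487 and 484 RPKM, with Cs at 138 and 136 RPKM. Pdk1, which inhibits pyruvate entry, had 24.9 and 41.03 RPKM and held nearly all of the Pdk sum, since Pdk2 and Pdk3 had no read.

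**Figure D4:**
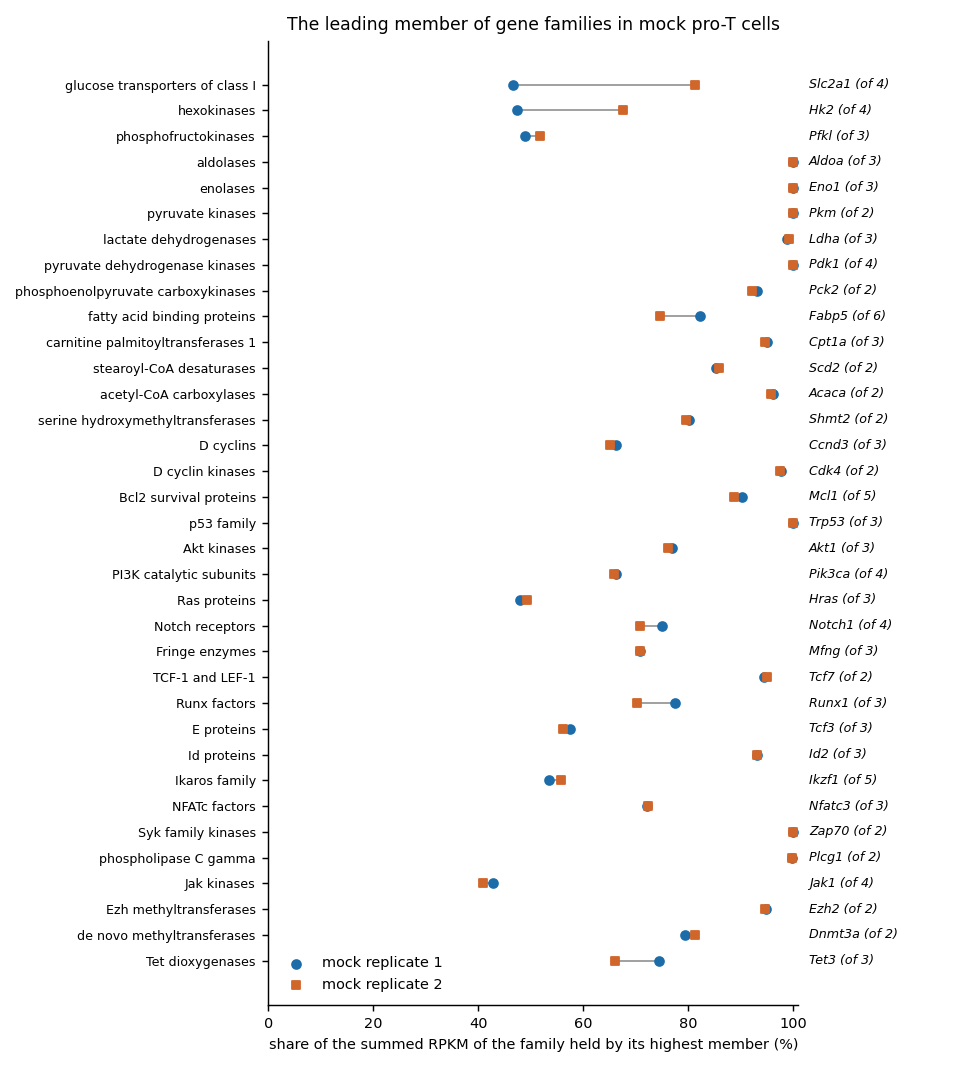
Share of the summed RPKM of 35 gene families held by the member with the highest mean, in mock replicate 1 (circles) and mock replicate 2 (squares), with that member and the family size at the right. Most families keep their share in both libraries, Aldoa, Pkm, Pdk1, Trp53 and Zap70 hold nearly all of theirs, and Slc2a1 (46.7% and 81.2%) and Hk2 (47.4% and 67.5%) differ most.

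Biosynthetic pathways were on almost throughout. All 25 nucleotide synthesis genes were expressed, from Adssl1 at 1.08 and 1.66 RPKM to Rrm2, a subunit of ribonucleotide reductase, at 187 and 186 RPKM. Of 22 serine, one-carbon and glutamine genes 19 were expressed, with the serine enzymes Phgdh at 242 and 217 RPKM, Psat1 at 157 and 141 RPKM and Shmt2 at 244 and 223 RPKM. Glutamine synthetase, Glul, had no read in mock and asparagine synthetase, Asns, had 0 and 0.0317 RPKM. Sterol and fatty acid synthesis had 23 of 25 genes expressed, led by the desaturase Scd2 at 322 and 437 RPKM, with Fasn at 109.8 and 96.8 RPKM. Of 17 genes of fatty acid handling 9 were expressed, and Fabp5 and Fabp4, lipid carriers, reached 459.6 and 638 RPKM and 98.99 and 217 RPKM, both higher in mock replicate 2. Pparg and Cd36, usual companions of Fabp4 in fat cells, were silent at 0 and 0.0143 RPKM and 0 and 0.00884 RPKM.

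Genes of gluconeogenesis and liver-type metabolism were expressed about as often as genes in general. Of 16 such genes 7 (43.8%) were expressed, against 40.8% of all rows and 45.7% of protein-coding rows. Among them were Fbp1, fructose bisphosphatase, at 23.04 and 20.996 RPKM, and the mitochondrial Pck2 at 15.4 and 15.5 RPKM, with the cytosolic Pck1 at 1.15 and 1.31 RPKM. G6pc3, the ubiquitous glucose phosphatase, had 24.3 and 23.5 RPKM. G6pc, Otc and Tat had no read. Arginase, Arg1, was intermediate at 0.453 and 0.559 RPKM, and the urea cycle pair Asl and Ass1 was split, at 12.1 and 13.2 RPKM and 0 and 0.0188 RPKM.

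Cell cycle genes were expressed in 26 of 32 cases. Cdk4 had 443 and 430.1 RPKM, the replication clamp Pcna 366 and 341 RPKM, Myc 285 and 260.2 RPKM, Mki67 88.5 and 93.7 RPKM and Cdk1 53.2 and 52.9 RPKM. Among D cyclins, Ccnd3, the form required at the pre-TCR stage, had 71.2 and 81.6 RPKM and Ccnd1 36.4 and 43.8 RPKM, while Ccnd2 was silent at 0 and 0.00527 RPKM. Cdkn2a and Cdkn2b, adjacent inhibitors, had no read in mock; the inhibitors Cdkn2c, Cdkn1b and Cdkn1a were expressed at 57.8 and 62.4 RPKM, at 19.3 and 28.3 RPKM and at 19.4 and 21.8 RPKM.

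Of 26 p53 and apoptosis genes 16 were expressed. Trp53 had 145 and 131 RPKM, and its relatives Trp63 and Trp73 had no read. Among survival proteins Mcl1 held 90.2% and 88.6% of the family sum, at 52.7 and 45.3 RPKM; Bcl2l1, or Bcl-x, had 5.49 and 5.49 RPKM, and Bcl2 was intermediate at 0.179 and 0.147 RPKM. The effectors Bax and Bak1 stood at 98.7 and 97.7 RPKM and 63.9 and 60.8 RPKM. Of the BH3-only killers Bcl2l11 had 21.2 and 21.6 RPKM, Bmf 28.7 and 32.3 RPKM and Bbc3 4.82 and 5.35 RPKM, while Pmaip1, or Noxa, had no read.

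Of 29 chromatin regulators 27 were expressed. Aes, a short relative of the Groucho corepressors, was highest at 239 and 222 RPKM, then the remodeller Chd4 at 166 and 172 RPKM. Tle3 was the leading full-length Groucho gene at 29.1 and 28.7 RPKM, and Tle1 was silent at 0.0163 and 0.0242 RPKM. Ezh2, the Polycomb methyltransferase, had 83.7 and 81.1 RPKM and Ezh1 4.599 and 4.58 RPKM. Dnmt1, which copies DNA methylation, had 102 and 103 RPKM, Dnmt3a 45.9 and 47.4 RPKM and Dnmt3b 11.9 and 10.9 RPKM, and of the Tet dioxygenases Tet3 led at 15.2 and 13.2 RPKM.

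Interferon response genes were expressed as a group, with no interferon named in the protocol. Of 27, 25 were expressed and none silent, with a median of 16.04 RPKM. B2m, the MHC class I light chain, had 319.9 and 369.9 RPKM, the proteasome subunit Psmb8 314 and 309 RPKM, Bst2, or tetherin, 229 and 229 RPKM, and Irf1 81.1 and 68.96 RPKM. The antiviral genes Isg15, Mx1 and Ifit1 had 46.4 and 69.9 RPKM, 11.2 and 9.74 RPKM and 4.46 and 8.26 RPKM. The exceptions were Ifitm3 at 0.573 and 0.707 RPKM and Ifitm1 at 0 and 0.136 RPKM. H2-K1 had 37.9 and 41.5 RPKM; H2-D1, at 18.2 and 19.2 RPKM, overlaps H2-L, and near-identical class I genes can share reads. Of the sex chromosome transcripts, the Y-linked Ddx3y, Kdm5d and Uty were expressed, at 4.12 and 3.36 RPKM, 1.78 and 1.72 RPKM and 1.097 and 1.09 RPKM, Eif2s3y had no read in mock, and Xist was silent at 0.0268 and 0.0305 RPKM.

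The other 3 groups serve to show where these levels sit. RPKM values are on the scale of library totals and fold changes on that of TMM, whose factors ran from 0.951 to 1.06. Of the genes expressed in mock, 9645 (96.5%) reached 1 RPKM in all 6 other libraries, and of those silent in mock, 10304 (85.6%) stayed below 0.1 RPKM in all 6. Of the mock-silent genes 80 were expressed in Runx1 WT, 43 in Runx1 DN and 3 in Satb1. Mock was then tested against each group with edgeR's quasi-likelihood test over 12699 genes, as mock over the other group on the log2 scale. The 3 comparisons share the 2 mock libraries, so what mock replicate 1 or 2 contributes enters all of them, and their calls are given side by side without an overlap.

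Against Runx1 WT, 8975 genes (70.7%) were called at an adjusted p under 0.05, so a call there is the rule; 4032 (31.8%) were higher and 4943 (38.9%) lower in mock, with a median log2 fold change of -0.10. Of 14 pro-T markers, 5 were higher and 7 lower in mock. Ptcra was higher, with 54.1 and 51.8 in mock against 16.4 and 13.2 RPKM in Runx1 WT (log2 fold change 1.96 ± 0.11 SE, edgeR adjusted p = 1.66e-07). Rag1 had 71.8 and 56.5 in mock against 18.95 and 17.1 RPKM in Runx1 WT (log2 fold change 1.95 ± 0.11 SE, edgeR adjusted p = 2.21e-07). Gata3 was lower, with 56.7 and 68.8 in mock against 214 and 216 RPKM in Runx1 WT (log2 fold change -1.65 ± 0.12 SE, edgeR adjusted p = 1.16e-06). Neither pair of libraries overlapped in these 3 genes. The other calls were Il2ra, Notch1 and Rag2, higher in mock, and Cd3e, Cd3g, Cd3d, Thy1, Lck and Bcl11b, lower in mock, while Tcf7 and Il7r did not pass.

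The listed genes furthest below Runx1 WT were largely those unread in mock. Trp73, a p53 relative, was at least 74.6-fold lower in mock, the chemokine receptor Ccr2 at least 54.7-fold and the macrophage receptor Csf1r at least 52.9-fold, with 3 counts over the mock group put in place of 0. In Runx1 WT they had 130 and 69, 46 and 100, and 81 and 60 counts in that order, and the fitted value of Ccr2 was -9.21 with all libraries and -8.54 without Runx1 WT replicate 2. Cd7 had 31 and 36 counts in mock against 20448 and 17588 in Runx1 WT (log2 fold change -9.19 ± 0.13 SE, edgeR adjusted p = 2.08e-10). Gzmb had 0 and 5 counts in mock against 825 and 746 in Runx1 WT, a log2 fold change of -8.27 that became -7.42 without mock replicate 1 and -12.61 without mock replicate 2. Furthest above were lipid carriers and hypoxia-inducible genes, Fabp4 at 4.92, Ankrd37 at 4.51, Ndrg1 at 3.83, Fabp5 at 3.59 and Car9 at 3.54 on the log2 scale. Leaving out mock replicate 2 moved all of these but Fabp5 by over 1.5-fold: Fabp4 was then at 4.22, Ankrd37 at 3.01, Ndrg1 at 1.61 (edgeR adjusted p = 0.229) and Car9, a carbonic anhydrase, at 2.41 (edgeR adjusted p = 0.0997). Without mock replicate 1 Ankrd37 was at 5.23, Ndrg1 at 4.67 and Car9 at 4.14. The calls of Ndrg1 and Car9 were also lost with either Runx1 WT library left out.

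Whole lists leaned both ways against Runx1 WT. Of 52 T lineage factors tested 33 were lower and 8 higher in mock (median -0.74), of 12 NK and cytotoxic genes 11 lower and 1 higher (median -3.66), of 7 myeloid genes 7 lower (median -3.02), and of 27 interferon response genes 25 lower and 1 higher (median -1.96). The filter on counts kept 12 of 16 NK and cytotoxic genes and 7 of 18 myeloid genes. Genes nearly unread in mock, such as Csf1r and Gzmb, passed it only through other groups and could not come out higher in mock. The counts and medians of the NK and myeloid lists are therefore no result about mock. Of 25 nucleotide synthesis genes 21 were higher and 3 lower in mock (median 1.21), of 20 serine and one-carbon genes 17 higher and 0 lower (median 0.97), and of 24 glycolytic genes 17 higher and 5 lower (median 1.65). Of 17 hypoxia-inducible genes 10 were higher and 3 lower in mock (median 1.19), with 5 higher and 2 lower without mock replicate 2 and 6 higher and 2 lower without Runx1 WT replicate 2. The 8 higher T lineage factors were 5 without mock replicate 1, and the 7 lower myeloid genes were 4 without Runx1 WT replicate 1; the other list counts here of more than 1 gene moved by less than 1.5 times when any library of the 4 was left out.

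Against Runx1 DN, 4375 genes (34.5%) were called, 2148 (16.9%) higher and 2227 (17.5%) lower in mock, with a median of -0.00; without Runx1 DN replicate 1 the calls numbered 2908. The pro-T markers were higher in mock in 11 of 14 cases and lower in 2, with a median of 2.15. Tcf7 had 446 and 439.5 in mock against 70.3 and 75.2 RPKM in Runx1 DN (log2 fold change 2.69 ± 0.08 SE, edgeR adjusted p = 7.13e-09). Il7r had 34.6 and 29.7 in mock against 2.63 and 2.13 RPKM in Runx1 DN (log2 fold change 3.84 ± 0.17 SE, edgeR adjusted p = 1.62e-07). Il2ra had 122 and 118 in mock against 16.3 and 16.2 RPKM in Runx1 DN (log2 fold change 2.96 ± 0.07 SE, edgeR adjusted p = 3.94e-09). All mock values of these genes lay above all Runx1 DN values. Rag1, Rag2, Lck, Thy1, Gata3, Bcl11b, Cd3d and Cd3e were higher in mock as well, whereas Notch1 had 84.1 and 73.6 in mock against 185 and 173 RPKM in Runx1 DN (log2 fold change -1.101 ± 0.10 SE, edgeR adjusted p = 2.8e-05), Ptcra was lower in mock too, and Cd3g did not pass.

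Runx1 itself, raised in the Runx1 DN libraries, had a log2 fold change of -7.41 in mock over Runx1 DN, counting reads of the construct. Among other listed genes, Csf1r was at least 13.4-fold and Tnfrsf1a at least 8.67-fold lower in mock, where neither had a read, and Tyrobp, an NK and myeloid adaptor, had 0.396 and 0.706 in mock against 28.02 and 23.9 RPKM in Runx1 DN. Tlr9 had 1 and 1 counts in mock against 40 and 57 in Runx1 DN, a ratio of 57.4 (95% counting interval 15.5 to 480.3). Furthest above were Ndrg1 at 6.59, Bnip3 at 4.50, Il17rb at 4.37, Ly6d at 4.31 and Pck1 at 4.22. Without mock replicate 1 Ndrg1 was at 7.43 and Bnip3 at 5.12, without mock replicate 2 they were at 4.37 and 3.40, without Runx1 DN replicate 1 Pck1 was at 4.88, and with either Runx1 DN library left out Ndrg1 did not pass (edgeR adjusted p = 0.0574 and 0.0545). Interferon response genes were lower in mock in 19 and higher in 2 of 27 (median -0.78), with 0 higher without mock replicate 1, mock replicate 2 or Runx1 DN replicate 1. Of 24 glycolytic genes 15 were higher and 5 lower in mock (median 0.94), with 7 higher and 2 lower without mock replicate 2, 10 higher and 4 lower without Runx1 DN replicate 2, 10 higher and 2 lower without Runx1 DN replicate 1 and 17 higher and 1 lower without mock replicate 1. Hypoxia-inducible genes were higher in mock in 8 and lower in 2 of 17 (median 0.99), with 5 higher and 3 lower without mock replicate 2 and 4 higher and 1 lower with either Runx1 DN library left out.

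Against Satb1, only 808 genes (6.36%) were called, 392 (3.09%) higher and 416 (3.28%) lower in mock, with a median of 0.00. Without mock replicate 1, mock replicate 2 or Satb1 replicate 1 the calls numbered 524, 430 and 478. Of the pro-T markers 7 were lower and 1 higher in mock. Il7r was higher, with 34.6 and 29.7 in mock against 7.73 and 5.34 RPKM in Satb1 (log2 fold change 2.31 ± 0.15 SE, edgeR adjusted p = 1.58e-05). Rag1 had 71.8 and 56.5 in mock against 139 and 118 RPKM in Satb1 (log2 fold change -0.998 ± 0.11 SE, edgeR adjusted p = 0.000397), and Rag2 had 0.687 and 0.896 in mock against 2.597 and 3.12 RPKM in Satb1 (log2 fold change -1.84 ± 0.20 SE, edgeR adjusted p = 0.000422). Notch1, Ptcra and Lck were also lower in mock. Cd3g and Il2ra passed by little and did not pass when any of the 4 libraries was left out (edgeR adjusted p 0.0516 to 0.221). Tcf7, Gata3, Bcl11b, Thy1, Cd3e and Cd3d did not pass.

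Cd7 had 1.11 and 1.06 in mock against 13.9 and 13.9 RPKM in Satb1 (log2 fold change -3.68 ± 0.14 SE, edgeR adjusted p = 7.72e-07), and Ifitm2, Satb1 and Zbtb16 were lower in mock, with log2 fold changes of -3.502, -3.31 and -3.01, Satb1 counting reads of the construct. Ifitm1, with 0 and 3 counts in mock against 27 and 19 in Satb1, had a ratio of 14.7 (95% counting interval 4.72 to 73.9); its fitted log2 fold change of -3.77 became -2.94 without mock replicate 1 and -7.42 without mock replicate 2. Higher in mock were Ly6a, a surface antigen induced by interferon, by 2.80, Cpa3 by 2.52, Il7r and Tet2 by 2.31 each and Ifit1 by 2.29. Tet2 was at 2.90 without Satb1 replicate 2, and Ifit1 did not pass without mock replicate 2 or Satb1 replicate 1 (edgeR adjusted p = 0.0702 and 0.0711). Interferon response genes were higher in mock in 11 and lower in 3 of 27, with a median of 0.57; 5 were higher and 3 lower without mock replicate 2. No hypoxia-inducible gene of 17 was called by edgeR, where 1 had an unadjusted p under 0.05, and 0 by DESeq2, and of 24 glycolytic genes edgeR called 1, lower in mock. Both counts turned on single libraries, since 5 hypoxia-inducible and 6 glycolytic genes were called higher in mock without Satb1 replicate 2, and 1 hypoxia-inducible and 0 glycolytic genes without mock replicate 1.

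**Figure D5:**
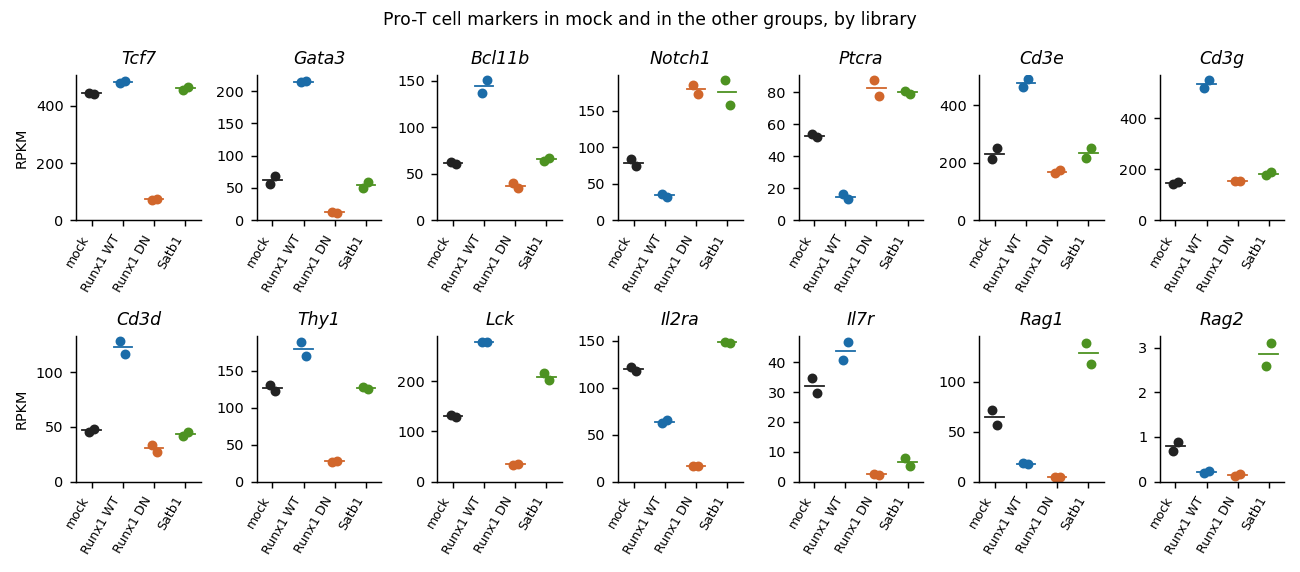
RPKM of 14 pro-T markers in each library, in mock (left), Runx1 WT, Runx1 DN and Satb1, as points with a bar at the mean of 2 libraries; each panel has its own axis from 0. Mock lies below Runx1 WT for Gata3 and Cd3e, above Runx1 DN for Tcf7, Il2ra, Il7r and Rag1, and below Satb1 for Rag1, Rag2 and Notch1.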

How the data were processed

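RNA-seq of 8 libraries, 2 per group, was used. The authors obtained exon counts per gene from HOMER, unadjusted for length or depth, on mm9, per the file headers. The deposited values are whole-number counts. HOMER, edgeR 3.6.8, STAR 2.4.0, RSEM 1.2.25 and Trimmomatic 033 are named, per the submitters' processing notes. The authors' deposited table also holds log2 fold changes and p-values per construct, which are not used here.

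From the counts, CPM and RPKM were computed with the library total and the Length column. A level has no test. Of 24505 rows, 2860 with reads shared all 8 counts with another row (12 expressed), and 2386 expressed rows overlapped another; reads were not separated by strand. Mock was tested against each group with edgeR 4.0.16 (R 4.3.3): filterByExpr (minimum count 10, total 15), TMM, quasi-likelihood test, group means of all 8 libraries, 4 residual degrees of freedom, two-sided, Benjamini-Hochberg over 12699 genes, threshold 0.05. The procedure was tested on simulated counts. DESeq2 1.42.0, RLE scaling, no filter, other thresholds, effective length, a replicate block and leaving out each library were the alternatives.

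Named are the 15 highest genes by RPKM and by CPM, the highest, lowest and defining members of 32 lists (696 genes), leading paralogs of 40 families, and per comparison the 5 listed genes with the largest fold change in each direction among those called with libraries that did not overlap. Lists, families and members were chosen with earlier results of these data known. Promoters are RefSeq on GRCm38.p6, matched by symbol. A fold against a group without counts puts 3 counts over the group. Counting intervals are at the 95% level, and cover counting error only, since PCR copies cannot be told apart here. Library totals set the precision. Some listed genes enter the counts and are not reported here by name.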

Additional observations from a re-analysis of the deposited data

How the results depend on the processing

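The counts of expressed (9998) and silent genes (12037) kept within 1.5 times under other thresholds, TMM scaling and effective length, except that 3552 silent rows remained when rows with equal counts were kept once, which left out 6066 silent rows without a count in any library and 2419 with counts equal to an earlier row. Leaving out a mock library gave 10118 to 10120 expressed and 12314 to 12385 silent genes. The 8975 calls against Runx1 WT became 8098 to 9006 when each library was left out in turn, the 4375 against Runx1 DN 2908 to 4675, lowest without Runx1 DN replicate 1, and the 808 against Satb1 430 to 839, with 524 without mock replicate 1, 430 without mock replicate 2 and 478 without Satb1 replicate 1; fewer samples enter these fits. With a replicate block the calls were 9381, 5287 and 1265, the last over 1.5 times more; the cause was not tested. Same-numbered mock and other libraries deviated together with correlations of 0.09 (Runx1 WT), 0.09 (Runx1 DN) and 0.39 (Satb1). The labels name no pairing and the main fit used none, but the value for Satb1 does not speak against a shared replicate effect. The glycolytic median of mock over Satb1 was 0.72 without Satb1 replicate 2 and -0.08 without Satb1 replicate 1. Glycolytic genes were thus higher in replicate 2 of Satb1 too, as in mock. DESeq2, RLE scaling and no filter kept each count of calls over all genes within 1.5 times. Counts within a list could move more. Of the glycolytic genes against Runx1 DN, DESeq2 called 14 higher and 1 lower in mock, where edgeR called 15 and 5. Of 744 fold changes of named genes and markers under the alternatives, 726 kept direction and call, 18 lost the call and 0 reversed; Ndrg1, Car9, Ifit1, Cd3g and Il2ra hold all losses. Recomputed RPKM values were set against 1 SD between replicates. Under TMM, which raises mock values 1.02-fold and 1.05-fold, 218 moved further and 499 did not. With effective length 127 moved further and 590 did not. Leaving out 1 of 2 mock libraries cannot move a mean by more than 1 SD, so the 717 values of each such setting are no check.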

Other observations

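Among noncoding RNAs, 383 of 3339 rows were expressed in mock. Those named below were taken from rows of at least 200 bases, leaving out symbols of small RNA families, Gm models and LOC entries. Several of the highest of the rows so taken are hosts of small nucleolar RNAs. Gas5 stood at 148 RPKM in mock replicate 1 and 139.8 RPKM in mock replicate 2, Zfas1 at 135 and 143 RPKM, and Snhg1 at 129 and 119.8 RPKM. 2410006H16Rik was the highest of the rows so taken at 212 and 233 RPKM, and its row overlaps Snord49a, Snord49b and Snord65, whose reads cannot be told from its own. Malat1, a long nuclear RNA, had 73.3 and 67.4 RPKM, rank 1201 by RPKM and rank 289 by CPM. AI662270, for which no role is given here, had 168 and 161 RPKM.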
